A study of Mus musculus and Mus musculus x Mus spretus with 14 samples.

Results

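miR-205 is a microRNA (miRNA), a short RNA that lowers the output of messenger RNAs pairing with its seed, and it was measured here by 1 array probe in 13 mouse skin cell lines. The probe was chosen by its name, as the 1 probe of 1271 in the deposited table whose slash-separated name holds mmu-miR-205, and it is 1 of 576 probes that name a mouse miRNA. The same probe also carries the human and rat names of miR-205. No probe on the array names a star form of miR-205, the older term for the less abundant strand of a hairpin.

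The lines fall into 3 phenotypes, and each had 1 array except A5, which had 2. Among the 5 non-malignant squamous lines, C5N is an immortalized single-cell clone of MCA3D keratinocytes of BALB/c origin, C50 an immortalized keratinocyte line, and NK a spontaneously immortalized keratinocyte line of a p53 null mouse, while MSCP1 and P6 are papilloma lines from Mus spretus X CBA mice treated with DMBA and TPA. The organism field disagrees with these descriptions, marking NK but not P6 as a Mus spretus cross. DMBA is a carcinogen and TPA a tumour promoter, the pair used to raise benign papillomas and then carcinomas on mouse skin. Of the 3 malignant squamous lines, B9 came from a carcinoma of an M. spretus X CBA F1 mouse given repeated DMBA, E4 was cloned from SN161, itself grown from the nodal metastasis of a 129/NIH F1 mouse, and PDVC57 came from a tumour raised by injecting PDV cells, DMBA-transformed keratinocytes, into C57BI mice (the labels' spelling). The 5 malignant spindle lines, whose cells have lost the epithelial shape, are A5 and D3 from the tumour that gave B9, H11 from the tumour that gave E4, and CARB and CARC from NIH/Swiss mice given DMBA and TPA. Every line was grown in the same serum-containing medium, several are single clones, and no line has an array from a separate culture that the labels name, so each line is 1 sample, and a p-value here weighs a difference only against how lines vary.

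miR-205 belongs to stratified epithelia such as the epidermis, where it is among the characteristic miRNAs of basal keratinocytes and their progenitors. Together with the miR-200 family it restrains Zeb1 and Zeb2, transcription factors that repress E-cadherin and drive cells from an epithelial to a mesenchymal state. The series title sets miR-203 and miR-205 against prognosis in cutaneous squamous cell carcinoma, and the lines ask how miR-205 stands from immortalized keratinocytes to papilloma, squamous carcinoma and spindle carcinoma.

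The array name mmu-miR-205 is the older name of miR-205-5p, and the sequences here are from RefSeq (GRCm38.p6), since the probe's own letters are not in the files used. The first sequence is the mature miRNA with its seed, bases 2 to 8, in capitals, and the second is the hairpin it is cut from, with the mature 5p arm in capitals.
mmu-miR-205-5p: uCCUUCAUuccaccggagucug
Mir205 hairpin: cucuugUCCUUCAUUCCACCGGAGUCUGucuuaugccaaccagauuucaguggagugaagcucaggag
The hairpin of 68 bases lies at chr1:193507463-193507530 on the minus strand and the mature form at chr1:193507503-193507524. It is annotated within the long noncoding RNA gene Mir205hg, which spans chr1:193506460-193510210 on the same strand, 2680 bases from that gene's start. The mature 5p form takes positions 7 to 28 of the hairpin and the 3p form positions 43 to 64. Among 1679 mature mouse miRNA names in the RefSeq table, the seed of miR-205 occurs in 1, its own. The closest other mature sequence, mmu-miR-760-5p, shares 15 of 22 bases with miR-205-5p at the best ungapped alignment, and the next closest shares 13, so no near-identical mouse miRNA was found that could share the probe's signal.

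The 5 members of the miR-200 family are shown because they too are known to restrain Zeb1 and Zeb2, and they do so through different seeds. They fall into 2 seed groups, again with bases 2 to 8 in capitals, and neither seed is that of miR-205.
mmu-miR-200a-3p: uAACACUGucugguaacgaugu
mmu-miR-141-3p: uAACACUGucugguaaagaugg
mmu-miR-200b-3p: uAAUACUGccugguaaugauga
mmu-miR-200c-3p: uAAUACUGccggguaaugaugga
mmu-miR-429-3p: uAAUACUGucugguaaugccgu
miR-200a, miR-200b and miR-429 lie together on chromosome 4 and miR-200c and miR-141 on chromosome 6, so that none of them shares a locus with miR-205 on chromosome 1.

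The deposited values are log2 signals, in which 1 unit is a doubling of signal. The 8 negative control probes had a median between 6.50 and 6.67 by line, and a probe was taken as above background where it lay more than 1 log2 unit over that median. The arrays of C5N and MSCP1 differed from the others: the C5N array had a median correlation of 0.355 with the other lines over all probes, and on the MSCP1 array 37 mouse probes were above background against 119 to 185 on the others. Both are non-malignant squamous lines. The A5 array had the second-lowest median correlation, 0.756, where the other 11 lines lay between 0.833 and 0.934. Comparisons with the non-malignant lines are also given without C5N and MSCP1, an omission chosen after seeing the data. The 2 arrays of A5 gave miR-205 levels of 7.30 and 7.47, a difference of 0.17, and their mean of 7.39 was used. Over the 134 mouse probes above background on A5, the 95th percentile of the difference between its 2 arrays was 0.41, the only measure of repeat error in these data.

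miR-205 was high in most squamous lines and at or near background in every spindle line. Among non-malignant squamous lines its level was 11.51 in P6, 11.48 in C50, 10.45 in NK, 8.93 in C5N and 7.93 in MSCP1. Among malignant squamous lines it was 10.94 in B9, 9.87 in PDVC57 and 6.69 in E4. Among spindle lines it was 7.39 in A5, 6.92 in D3, 6.90 in H11, 6.88 in CARC and 6.52 in CARB. The 5 spindle lines lay below every non-malignant line, while E4 alone among squamous lines fell within the spindle range. The group means were 10.06 ± 1.59 (SD, n = 5) in non-malignant squamous, 9.17 ± 2.21 (SD, n = 3) in malignant squamous and 6.92 ± 0.31 (SD, n = 5) in spindle lines.

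**Figure D1:**
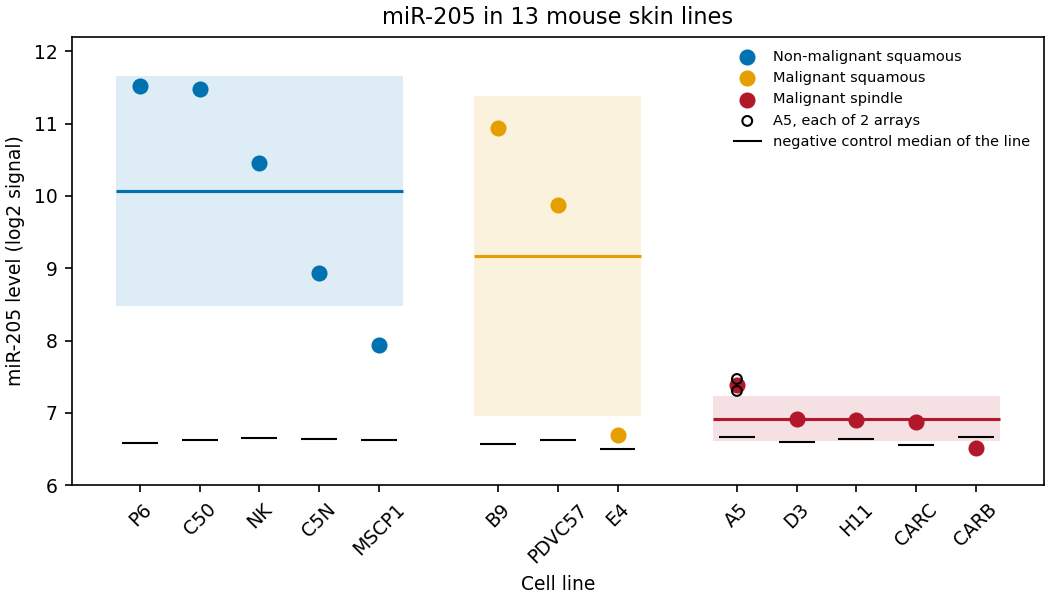
The miR-205 level (log2 signal) is plotted for each of 13 lines, with the group mean as a line, ± 1 SD as a shaded box, both A5 arrays as open circles and each line's negative control median as a black dash. The 5 spindle lines and E4 sit near the dashes, and the other squamous lines lie above them, from 7.93 in MSCP1 to 11.51 in P6.

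Ordered by level, the lines separated into a graded upper part and a lower part at background. Between the 7 lines above background there were 6 gaps, of which 5 were larger than the A5 repeat difference of 0.41. P6 and C50 differed by 0.03 and could not be ordered. The steps from C50 through B9, NK, PDVC57, C5N and MSCP1 ranged from 0.49 to 1.00, beyond the repeat difference. That yardstick comes from A5 alone and does not cover differences between arrays of different lines. Spike-in means, for example, were 7.67 in C5N and 9.04 in NK. The order is therefore only that of the deposited scale. By place within each array it differs, with NK 18th, MSCP1 24th and B9 25th. The other 6 lines, A5, D3, H11, CARC, E4 and CARB, were at background by the margin of 1 unit, so no order is read from them. A5 lay 0.47 above D3, beyond the repeat difference, and the later steps were at most 0.18.

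Set against each array's own background, miR-205 was more than 1 unit over the negative control median in 7 lines and not in 6. The excess was 4.93 in P6, 4.85 in C50, 4.37 in B9, 3.80 in NK, 3.25 in PDVC57, 2.30 in C5N and 1.30 in MSCP1. It was 0.72 in A5, 0.33 in D3, 0.32 in CARC, 0.26 in H11, 0.19 in E4 and -0.14 in CARB. All 7 lines above background are squamous, and the 6 others are E4 and the 5 spindle lines, for which a level is only an upper bound.

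The position of the probe within its own array gave the same division without relying on a common scale. Counted from the brightest mouse probe, the miR-205 probe stood 8th in P6, 13th in C50, 18th in NK, 24th in MSCP1, 25th in B9, 36th in PDVC57 and 37th in C5N. In the other lines it stood at place 179 in A5, 270 in H11, 277 in CARC, 281 in D3, 349 in E4 and 485 in CARB, among 576. MSCP1, whose level of 7.93 was the lowest of the 7, was thus near B9 by place, on an array where few probes were above background. Places depend on each probe's own response and are compared here only between lines for this probe.

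In the comparison of spindle with non-malignant squamous lines, miR-205 differed by -3.14 ± 0.81 on the log2 scale (SE, limma). Because every spindle line was at background, the fold is a lower bound. The non-malignant mean lay at least 5.41-fold above the spindle mean, taking each spindle line at the dimmest mouse probe above background on its array. That bound is for the means of log2 levels and not for each line. MSCP1, at 7.93, was little above such probes, which lay between 7.52 and 7.68 over all lines. In the exact two-sided permutation test over lines the p was 0.00794, the smallest that 252 splits allow, and 0.0238 after Benjamini-Hochberg adjustment over the 6 comparisons of miR-205. With limma across all 576 mouse probes the adjusted p was 0.351. That test called 0 of 576 probes (0%), with 49 at an unadjusted p under 0.05, and miR-205 had the most negative difference of all. Both statistics refer to lines, and A5 and D3 share a tumour.

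Taking all squamous lines, with both squamous groups weighted equally, the spindle lines differed by -2.70 ± 0.74 on the log2 scale (SE, limma), again the most negative of 576 differences, with an adjusted p of 0.378 and 0 of 576 probes called by limma (28 at an unadjusted p under 0.05). Over the 8 squamous lines pooled the difference was -2.81, with an exact two-sided permutation p of 0.00777 over 1287 splits, adjusted 0.0238. These splits treat lines as independent, although B9 shares a tumour with A5 and D3, and E4 with H11. Leaving out any single line kept the exact permutation p between 0.0025 and 0.0222 here. Against the non-malignant lines that p lay between 0.00794 and 0.0159. Those groups do not overlap whichever line is left out, and B9, E4 and PDVC57 are in neither, so that range is no check. Without C5N and MSCP1 the limma difference was -3.24 with an adjusted p of 0.0191, and -4.23 with an adjusted p of 0.00772 against the non-malignant lines. With A5 left out as well these were -3.36 (adjusted p = 0.0296) and -4.35 (adjusted p = 0.0165). C5N and MSCP1 had the lowest non-malignant levels, 8.93 and 7.93, and A5 the highest spindle level, 7.39. Leaving them out could only widen these differences, so the lower p-values are not further support.

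Against the 3 malignant squamous lines the spindle lines differed by -2.25 ± 0.94 on the log2 scale (SE, limma), which did not pass either test. The limma adjusted p was 0.990, with 0 of 576 probes called and 17 at an unadjusted p under 0.05. The exact two-sided permutation p was 0.0893, where 56 splits allow no less than 0.0179, and 0.179 after adjustment over the 6 comparisons. The value turned on single squamous lines: without E4 the difference was -3.49, and without B9 it was -1.36. The fitted difference ± 2 SE ran from -4.12 to -0.38.

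Between malignant and non-malignant squamous lines miR-205 differed by -0.89 ± 0.94 (SE, limma), less than the spread within either group. The adjusted p was 0.880 in limma, which called 0 of 576 probes (26 at an unadjusted p under 0.05), and the exact permutation p was 0.554. The interval of ± 2 SE ran from -2.77 to 0.98, so a difference of several-fold in the lower direction is not excluded. Without C5N and MSCP1 the difference was -1.98, with an adjusted p of 0.999 in limma and an exact permutation p of 0.2, where 20 splits allow no less than 0.1. With U6 subtracted it passed limma's threshold, at -2.92 with an adjusted p of 0.0431, while the median of all probes was lower too. Without E4 the sign turned, to 0.34, and without B9 the difference was -1.78.

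Between the 2 papilloma lines and the 3 immortalized keratinocyte lines the difference was -0.57 ± 1.21 (SE, limma), with an adjusted p of 0.999. limma called 0 of 576 probes there, with 14 at an unadjusted p under 0.05. The exact permutation p was 0.8, and 10 splits allow none below 0.1. The means were 9.72 ± 2.53 (SD, n = 2) and 10.29 ± 1.28 (SD, n = 3), and the 2 papilloma lines held both the highest and the lowest non-malignant level. Without MSCP1 the difference was 1.22, and without P6 it was -2.36, so the direction rests on which papilloma line is kept.

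**Figure D2:**
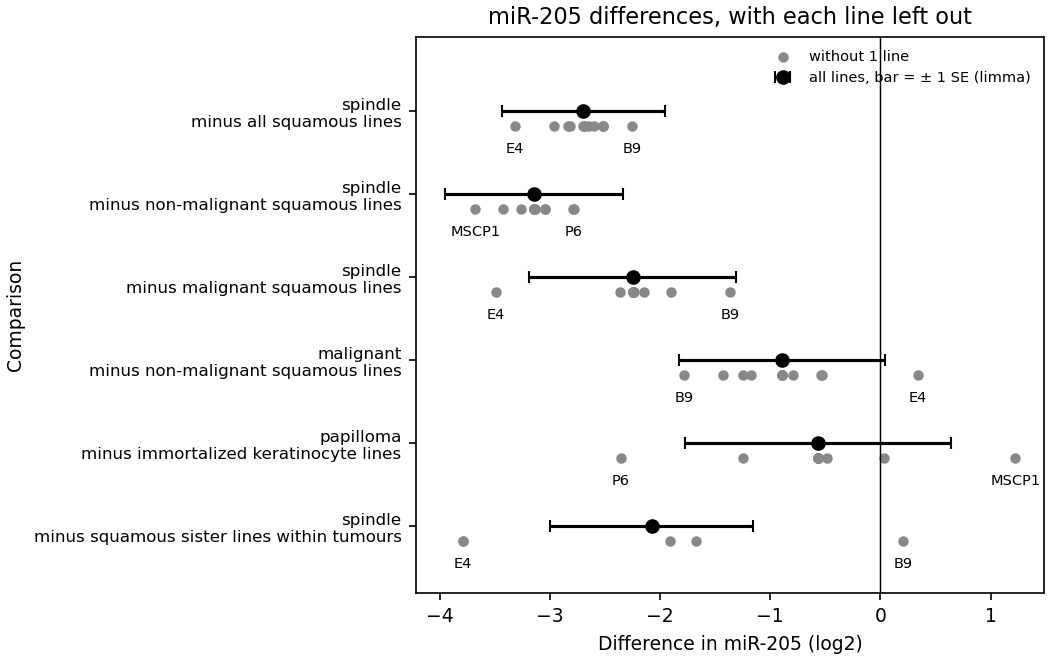
The difference in miR-205 (log2) is plotted for the 6 comparisons, with all lines (black, ± 1 SE from limma) and with each line left out in turn (grey, the extremes named). Differences of spindle lines from all squamous and from non-malignant lines stay between -3.68 and -2.25, whereas the last 3 comparisons cross 0.

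The sister lines of 1 tumour allow squamous and spindle cells of the same origin to be compared, and the 2 tumours differed in their squamous line. In the tumour of B9, miR-205 was 10.94 in the squamous line and 7.39 and 6.92 in the spindle lines A5 and D3. In the tumour of E4 it was 6.69 in the squamous line and 6.90 in the spindle line H11, both at background. B9 was thus at least 9.62-fold above A5 and at least 10.2-fold above D3, and no fold is given for E4 and H11.

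Fitted within tumours, the spindle lines differed by -2.08 ± 0.92 on the log2 scale (SE, limma with tumour as a block), with an adjusted p of 0.981. limma called 0 of 576 probes in these 5 lines, with 7 at an unadjusted p under 0.05. The exact permutation p within tumours was 0.333, where 6 splits allow no less than 0.167. The mean hides the contrast between the tumours: without E4 the difference was -3.79, and without B9 it was 0.21.

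**Figure D3:**
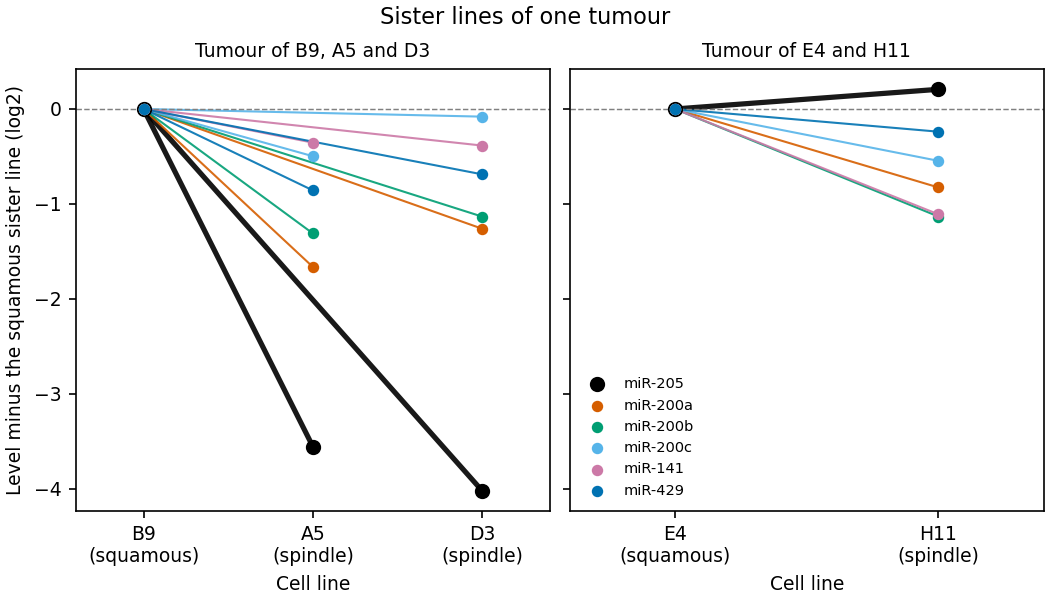
For each tumour the levels of miR-205 (black) and the 5 miR-200 family miRNAs (colours) are plotted as the difference (log2) from the squamous sister line, which is at 0. miR-205 lies at -3.56 and -4.02 in A5 and D3 but at 0.21 in H11, while miR-200a and miR-200b lie between -1.66 and -0.83 in all 3 spindle lines. Both lines of the right panel are at background for miR-205, and miR-200c and miR-429 are at background in all 5 lines.

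All 5 members of the miR-200 family had a lower mean in the spindle lines than in the non-malignant ones, and none passed limma's adjusted threshold in any of the 6 comparisons. The median of the 5 differences was -2.23, beside 0.03 over all 576 probes. miR-141 differed by -2.50, miR-200c by -2.23, miR-200b by -2.23, miR-200a by -2.17 and miR-429 by -1.11, with limma adjusted p-values between 0.262 and 0.396. All 5 members were at background in every spindle line. C5N had 1 of the 5 above background and MSCP1 1 of the 5, and the differences of the family depended on these lines. Their family means, 7.23 each, were the lowest of the non-malignant lines, where the others lay between 9.62 and 10.18. Leaving them out could only widen the differences, so the calls that follow are not further support. Without C5N and MSCP1, limma called all 5 members lower in the spindle lines, among 7 of 576 probes called (1.22%). The differences were then -3.71 for miR-141, -3.60 for miR-200b, -3.36 for miR-200c, -2.99 for miR-200a and -1.78 for miR-429, with adjusted p-values from 0.000121 to 0.00296.

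Complete separation of spindle from non-malignant lines in the lower direction occurred for 5 of 576 mouse probes (0.868%). These were miR-141, miR-200a, miR-200c and miR-205, and miR-203*, the star form of miR-203. For the other 4 the lowest non-malignant level was itself within 1 unit of background, so their separation carries no order, and for miR-205 alone it was above background. For miR-205 the gap between the highest spindle line, A5 at 7.39, and the lowest non-malignant line, MSCP1 at 7.93, was 0.55. miR-203 itself, an miRNA of differentiating keratinocytes named with miR-205 in the series title, reached 10.16 in NK and 8.27 in C50 and was at background in the other 11 lines. Its difference between spindle and non-malignant lines was -1.02 ± 0.47 (SE, limma, adjusted p = 0.568).

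Over the malignant squamous lines miR-205 and the miR-200 family did not follow each other in every pair of lines. B9 and PDVC57 both held miR-205 above background, at 10.94 and 9.87, and B9 was 1.07 above PDVC57. For 4 members of the family the order was the other way, B9 minus PDVC57 being -2.83 for miR-141, -2.54 for miR-200c, -1.44 for miR-200b and -0.73 for miR-200a, while miR-429 was at background in both. In B9 3 of the 5 family members were above background, and miR-200c was at background, at 6.83. In E4, where miR-205 was at background, miR-200a at 7.60, miR-200b at 8.05 and miR-141 at 8.02 were above it, also 3 of 5. B9 was at least 10.7-fold above E4 for miR-205. For these 3 family members E4 minus B9 was -0.60 for miR-200a, -0.03 for miR-200b and 0.36 for miR-141, the last 2 within the repeat difference. Between E4 and PDVC57 both were lower in E4. PDVC57 was at least 5.11-fold above E4 for miR-205. E4 minus PDVC57 was -2.48 for miR-141, -1.47 for miR-200b and -1.33 for miR-200a. It was -2.17 for miR-200c, which was at background in E4. Each of these contrasts is between single lines and has no replicate check.

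**Figure D4:**
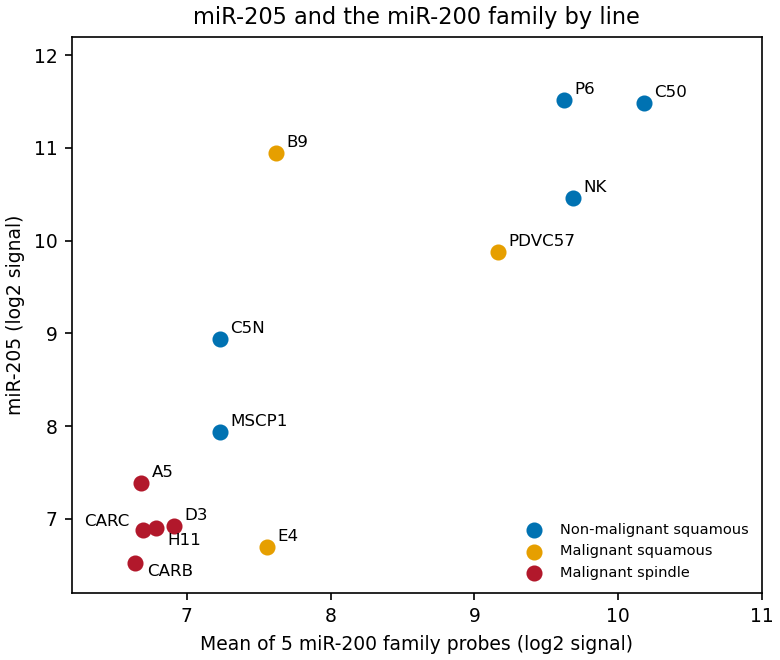
The miR-205 level (log2 signal) is plotted against the mean of the 5 miR-200 family probes (log2 signal) for 13 lines, coloured by phenotype. The 5 spindle lines cluster at the lower left, and the malignant squamous lines B9 and E4 lie at nearly the same family mean, 7.62 and 7.56 (each over 3 members above background and 2 at background), with miR-205 at 10.94 and 6.69.

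The same family nonetheless led the miRNAs whose pattern was most like that of miR-205 over all 13 lines. Likeness was Pearson's r of the log2 levels over 13 lines, among 183 mouse miRNAs above background in at least 3 lines, and the median r of all of them was 0.18. The 5 highest were miR-200a at 0.90, miR-200b at 0.84, miR-141 at 0.83, miR-200c at 0.81 and miR-429 at 0.76. Next came miR-378 at 0.65, miR-183* at 0.62, miR-24-2* at 0.59, and miR-710 and miR-196a at 0.57 each. The points share their arrays and the difference between phenotypes, and r is given as a description only.

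The family's lead did not hold within phenotypes. With each phenotype's mean removed, none of the 5 was among the 5 most alike, and miR-200a had r = 0.77 where the highest r was 0.90. The lowest of the family, miR-429, kept r = 0.58. Other miRNAs rose as well: the 10th highest r was 0.80 beside 0.57 before, and 9.84% of r values were below 0 beside 22.95%. The cause of the lost lead was not tested. Over the 8 squamous lines alone, none was among the 5 most alike either, with miR-200a at 0.80 and miR-183* highest at 0.87. Without C5N, MSCP1 and A5, 4 of the 5 remained among the 5 most alike, with miR-200a at 0.91.

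**Figure D5:**
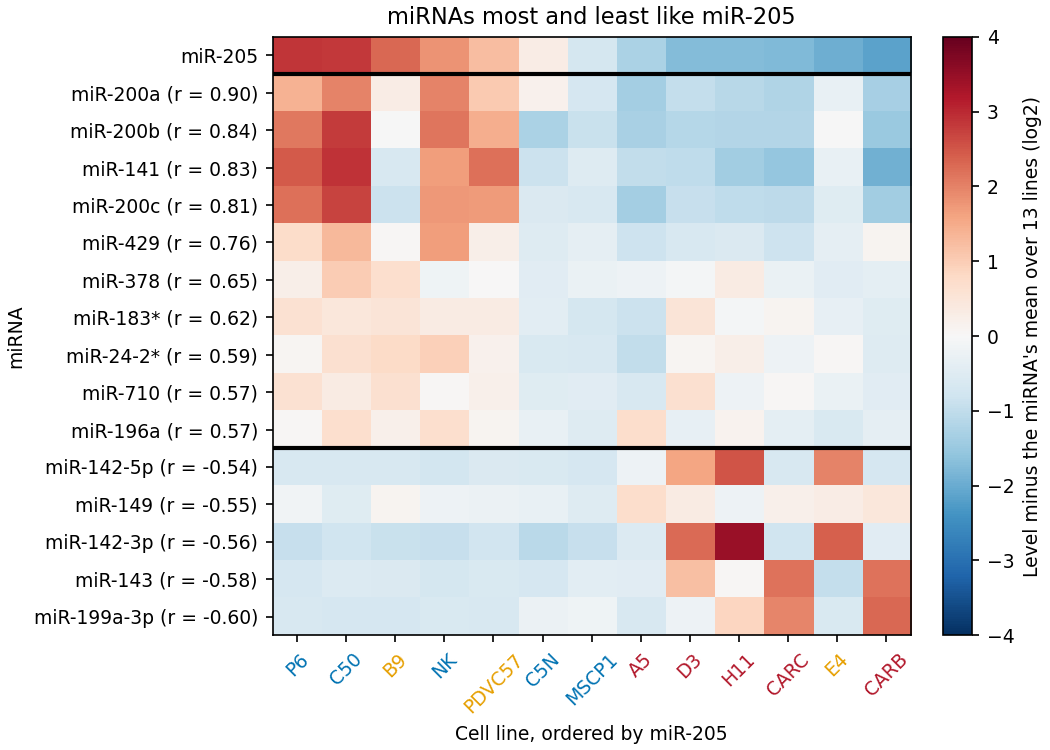
Each row is 1 miRNA and each column 1 line, ordered by miR-205 from high to low and with line names coloured blue for non-malignant, orange for malignant squamous and red for spindle. Colour gives the level minus that miRNA's mean over 13 lines (log2), and rows follow the Pearson r with miR-205, from miR-200a at 0.90 to miR-199a-3p at -0.60.

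The least alike were miRNAs that were high in some of the lines with miR-205 at background. miR-199a-3p, a miRNA of mesenchymal cells, had r = -0.60 and reached 9.45 in CARB, 9.11 in CARC and 8.01 in H11 against at most 6.98 in every squamous line. miR-143, a miRNA of fibroblasts and smooth muscle, had r = -0.58 and reached 9.31 in CARB, 9.32 in CARC and 8.35 in D3 against at most 6.73 in squamous lines. miR-142-3p, which marks blood cells, had r = -0.56 and was 10.01 in E4, 11.08 in H11 and 9.89 in D3, with at most 7.15 elsewhere. miR-149 at -0.55 and miR-142-5p at -0.54 completed the 5.

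Markers of other cell types were read beside these levels, and in whole-culture RNA fewer cells of a type and less RNA per cell cannot be told apart. Of 6 mesenchymal markers listed, read by 5 probes, all 5 probes (miR-143, miR-145, miR-199a-3p, miR-199a-5p and miR-214) were above background in some spindle line, and 1 of 5, miR-214, in squamous lines. The list's mean level ran from 7.22 to 8.84 in spindle lines, from 6.88 to 7.02 in malignant squamous and from 6.83 to 7.02 in non-malignant lines. A5 had 1 of the 5 above background, miR-214 at 9.37, and the other 4 at background. The squamous line E4 had miR-214 at 9.27, within the repeat difference of A5, so A5 and E4 are not ordered. miR-214 ran from 8.00 to 8.73 in the other spindle lines and from 7.44 to 8.31 in the other squamous lines. The mean of the 10 epithelial and keratinocyte markers, which include the miR-200 family, ran from 7.12 to 8.04 in spindle, from 8.18 to 9.15 in malignant squamous and from 7.26 to 9.72 in non-malignant lines. In E4 7 of these 10 were above background, and miR-200c, miR-203 and miR-429 were not. In the spindle line D3 4 of 10 were, miR-31, miR-182, miR-183 and miR-96, with miR-31 at 11.61 beside 11.27 in E4. Counts over the spindle lines ran from 1 to 4, and the non-malignant lines C5N and MSCP1 had 4 and 2.

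Of the 5 blood markers, miR-142-3p and miR-142-5p were above background in E4, H11 and D3, and miR-486 in C5N. miR-223, of myeloid cells, and miR-451, of red cells, were at background in all 13 lines. The blood list's mean ran from 6.65 to 8.22 in spindle, from 6.68 to 7.80 in malignant squamous and from 6.62 to 6.99 in non-malignant lines. The part of the blood and mesenchymal markers in the level of miR-205 was not tested. The endothelial markers miR-126-3p and miR-126-5p were at background in all 13 lines.

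Array-wide controls also varied between lines. The mean of the 10 spike-in probes, RNAs added to the labelling reaction, ran from 7.63 to 10.02 in spindle lines, from 7.79 to 8.84 in malignant squamous and from 7.67 to 9.04 in non-malignant lines. U6-snRNA-2, a small nuclear RNA often used as a reference, ran from 12.39 to 14.77, from 13.10 to 15.06 and from 10.42 to 13.10 in the same groups. With quantile normalization limma called miR-205 lower in spindle than in non-malignant lines, with a difference of -3.67 and an adjusted p of 0.00682. That setting called 2 of 576 probes (0.347%), miR-200a being the other.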

How the data were processed

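Total RNA of 13 mouse skin lines was hybridised to Exiqon miRNA arrays in 1 colour (Cy3), per the labels' protocols. The deposited values are log2 signals, a scale read from their range of 5.93 to 15.2. Not given in the sources used here are the normalization, background correction and scanner, and any centring or offset is unknown. Column medians lay between 6.71 and 6.86, and the deposited columns were used without further scaling. Their number, not a read depth, limits the precision. The 2 A5 arrays were averaged.

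Comparisons used limma 3.58.1 under R 4.3.3 (lmFit, then eBayes with its trend option, Benjamini-Hochberg over the 576 mouse probes, threshold 0.05) on all 13 lines, or on the 5 lines of the 2 tumours with tumour as a block, and exact two-sided permutation tests for miR-205 alone, adjusted over 6 comparisons. The miRNAs named were miR-205, the miR-200 family, miR-203, the 10 probes most and the 5 least correlated with miR-205, and the marker lists. Where probes shared a miRNA, the brightest stood for it. The marker lists also held muscle, neural and liver markers, which played no part in a result: of 4 muscle, 2 matched neural and 1 liver marker, miR-1, miR-133b, miR-9 and miR-122 were above background in at least 1 line. The miRNA and its lists were chosen with earlier results of these data known. The fits were tested on simulated data, with lines drawn independently and a spread capped below that of miR-205 in either squamous group. Those simulations do not show how the fits perform for miR-205. Alternatives were the normalization, a floor at background, the probes tested, the variance model, array weights, the tumour as a random block, the M. spretus cross as a covariate by either reading of the labels, which disagree for NK and P6, each A5 array alone, and lines left out. The likeness over 8 squamous lines was chosen after seeing the data.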

Additional observations from a re-analysis of the deposited data

Results flagged for a closer look

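The difference of miR-205 between squamous and spindle cells was not alike in the 2 tumours that gave both. The mean of A5 and D3 minus B9 was -3.79, whereas H11 minus E4 was 0.21, with both lines at background and less than the A5 repeat difference of 0.41, so that the second tumour shows no direction. The difference between the tumours was not tested, since each has 1 squamous line.

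miR-429, a member of the miR-200 family, was 7.40 in CARB and between 6.46 and 6.68 in the other 4 spindle lines, a gap of 0.763 of the group's range by Dixon's criterion. It was the 1 sample so marked in 34 groups tested, and chance marks about 1 in 20. The value is within 1 unit of the CARB negative control median, and the other 4 family members were between 6.29 and 6.58 in that line.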

How the results depend on the processing

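The lower miR-205 of spindle lines kept its direction under all 27 alternatives against all squamous and against non-malignant lines, and 6 of them passed limma's threshold where the deposited scaling did not. Against all squamous lines these gave -2.81 with quantile normalization, -3.55 with the spike-in mean subtracted, -2.93 with U6 subtracted, -3.42 with array weights, -3.36 without C5N, MSCP1 and A5 and -3.24 without C5N and MSCP1. Against non-malignant lines they gave -3.67, -3.87, -4.39, -4.01, -4.35 and -4.23. The smallest differences came with a floor at background, and did not pass. They were -2.13 against all squamous lines (limma adjusted p = 0.861) and -2.44 against non-malignant lines (limma adjusted p = 0.491). Leaving out B9, E4 or PDVC57, or adding the M. spretus covariate, left the difference from non-malignant lines at -3.14. Those settings could not test its direction. With the spike-in mean subtracted the median of all probes was -0.84 and -0.70 in these comparisons, and -0.23 and -1.22 with U6 subtracted. Relative to it the differences were -2.70 and -3.17 under either. The settings without C5N and MSCP1 leave out the lowest non-malignant lines, which can only widen the differences. Malignant minus non-malignant squamous passed limma's threshold with U6 subtracted, at -2.92 (adjusted p = 0.0431, exact permutation p = 0.0179, the smallest possible, and -0.92 relative to the median of all probes), and did not at -1.72 with quantile normalization or -1.98 without C5N and MSCP1. Papilloma minus immortalized turned to 0.47 with quantile normalization, 0.55 without C5N and MSCP1, with or without A5, and 0.03 without C50. Leaving out 1 line at a time gave -3.32 to -2.25 (spindle minus all squamous), -3.68 to -2.78 (minus non-malignant), -3.49 to -1.36 (minus malignant squamous), -1.78 to 0.34 (malignant minus non-malignant), -2.36 to 1.22 (papilloma) and -3.79 to 0.21 (within tumours). The count of family members among the 5 most like miR-205 went from 5 to 0 both with phenotype means removed and over squamous lines only. The cause of these shifts was not tested, apart from the samples left out. Sister lines were paired by tumour, and replicate numbers were not used to pair lines between groups. Levels within 1 unit of the negative controls carry no order.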
